A study of Mus musculus with 175 samples.

Results

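The 29 genes described here are those whose products make cholesterol and fatty acids, or control that synthesis, in a single-cell RNA sequencing experiment on mouse fetal liver. They were taken by gene symbol from the gene annotation that accompanied the counts, by a rule that uses no measured level but was set with earlier results of these data known, and all 29 were found among the 49585 mouse features counted. By role, 7 make mevalonate and isoprenoids, 11 turn these into squalene and cholesterol, 6 control the pathway or carry sterols, and 5 make fatty acids. Of the 29 genes, 26 were read in at least 25% of the analysed cells with a mean count of at least 1, as were 8741 of all mouse features. Genes that met these limits are called measured. Fdps, Hsd17b7 and Scd1 did not meet them and are described with the others but are not counted.

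The cells came from fetal livers at E14.5 (14.5 days post fertilization), pooled from 2 litters of C57BL/6 crossed with ICR mice. The embryos carried a Runx1 reporter allele, P1-GFP::P2-hCD4/+, in which human CD4 on the cell surface reports transcription from the P2 promoter of Runx1 (the labels also write the genotype as Runx1 P2-GFP::P2-hCD4/+). Megakaryocyte-erythroid progenitors (MEPs) and common myeloid progenitors (CMPs) were each sorted into cells without and with the reporter, giving P2- and P2+ MEPs as well as P2- and P2+ CMPs, so that all 4 populations shared genotype, strain, stage and pool and differed in surface phenotype. Only cells without CD41 and with CD150 on the surface were taken, so that MEPs and CMPs here are parts of these compartments. MEPs had no CD34 on the surface and CMPs had it. Single cells were sorted into wells, and full-length cDNA was sequenced by a modified Smart-Seq2 protocol without molecular identifiers, so that PCR copies of a molecule are counted as separate reads.

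After removal of 3 of the 175 cells, the MEPs analysed were 56 P2- and 47 P2+ cells and the CMPs 27 P2- and 42 P2+ cells, with between 295064 and 1540631 reads on mouse genes per cell. Each population is 1 sample of 1 pool, its cells are not replicates, and no test between populations was possible. Levels are therefore given as pooled CPM, the reads of a gene summed over the cells of a population per 1000000 summed reads on mouse genes, and intervals are 95% intervals that cover counting error only. The cell subtype label of 1 P2- CMP names MEPs instead.

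Cholesterol is built from acetyl-CoA through mevalonate, farnesyl diphosphate, squalene and lanosterol, and fatty acids are built from the same acetyl-CoA, which is released from citrate in the cytosol. Both routes are under the control of the sterol regulatory element binding proteins (SREBPs), transcription factors that are held in the endoplasmic reticulum by Scap and Insig proteins while sterol is plentiful and are cut free when sterol runs low. SREBP-2, from Srebf2, acts mainly on cholesterol genes, and SREBP-1, from Srebf1, mainly on fatty acid genes, and dividing blood progenitors need both products for new membrane.

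SREBPs bind DNA at the sterol regulatory element, and the letters of this element in the promoters of the genes are shown because the regulators described below are the factors that bind such letters. RefSeq promoter windows (GRCm38.p6, 250 bases before to 50 bases after each start) were matched for 23 of the 29 genes, some with several starts. The letters TCACNCCAC, searched on both strands, were in the window of 1 of these 23 genes, Hmgcs1, and in 1.44% of 27025 genes with a window. The shorter TCACNCCA, which the longer motif contains, was in 3 of the 23 and in 4.97% of all these genes. All 3 matches read on the strand of the gene, and they lay at -137 to -130 from the start of Hmgcs1, -177 to -170 from that of Msmo1 and -162 to -155 from that of Srebf2. The 3 windows follow, 5′ to 3′ on the strand of the gene, with TCACNCCA in capitals. They lie at chr13:119690101-119690400 on the plus strand (Hmgcs1), chr8:64733529-64733828 on the minus strand (Msmo1) and chr15:82147019-82147318 on the plus strand (Srebf2).
Hmgcs1: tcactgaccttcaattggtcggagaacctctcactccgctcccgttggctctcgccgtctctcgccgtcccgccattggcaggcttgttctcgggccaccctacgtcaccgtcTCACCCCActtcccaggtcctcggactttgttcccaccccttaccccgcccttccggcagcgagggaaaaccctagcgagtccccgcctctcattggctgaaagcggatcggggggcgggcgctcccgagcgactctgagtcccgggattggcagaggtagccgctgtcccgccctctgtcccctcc
Msmo1: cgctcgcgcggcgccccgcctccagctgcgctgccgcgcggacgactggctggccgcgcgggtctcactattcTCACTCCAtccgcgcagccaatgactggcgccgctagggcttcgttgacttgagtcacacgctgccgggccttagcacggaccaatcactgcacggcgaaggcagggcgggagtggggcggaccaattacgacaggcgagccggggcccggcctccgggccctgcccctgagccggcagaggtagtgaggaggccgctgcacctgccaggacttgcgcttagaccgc
Srebf2: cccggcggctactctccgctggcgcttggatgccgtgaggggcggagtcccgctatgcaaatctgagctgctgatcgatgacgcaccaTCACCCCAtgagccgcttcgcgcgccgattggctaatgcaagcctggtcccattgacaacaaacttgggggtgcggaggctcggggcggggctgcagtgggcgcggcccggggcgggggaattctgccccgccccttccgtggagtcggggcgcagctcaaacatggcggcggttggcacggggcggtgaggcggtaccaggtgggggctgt

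The letters CCAAT, which the factor NF-Y binds beside sterol elements, were in the windows of 20 of the 23 genes and of 41.1% of all genes on either strand, and GGGCGG, the core of the Sp1 site, was in 20 of the 23 and in 38.2% of all genes. CACGTG, an E-box, was in 5 of the 23 and in 8.09% of all genes. These matches describe letters within 300 bases and not binding.

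The 29 genes together took similar shares of the reads in the 4 populations. Their summed level was 1564 and 1484 CPM in P2- and P2+ MEPs, and 1549 and 1288 CPM in P2- and P2+ CMPs, so that the P2+ CMPs were lowest. The plot of pooled levels shows the genes one by one. Of the 26 measured genes, 9 were highest in P2- MEPs and 6 in P2+ MEPs, while 6 had their highest level in P2- CMPs and 5 in P2+ CMPs, and over all measured genes the shares in this order were 30.1%, 21.6%, 23.3% and 25.1%. The lowest level was found 8 times each in P2- MEPs, P2+ MEPs and P2+ CMPs, against 29.02%, 18.2% and 30.6% of all measured genes, and 2 times in P2- CMPs, against 22.1%.

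**Figure D1:**
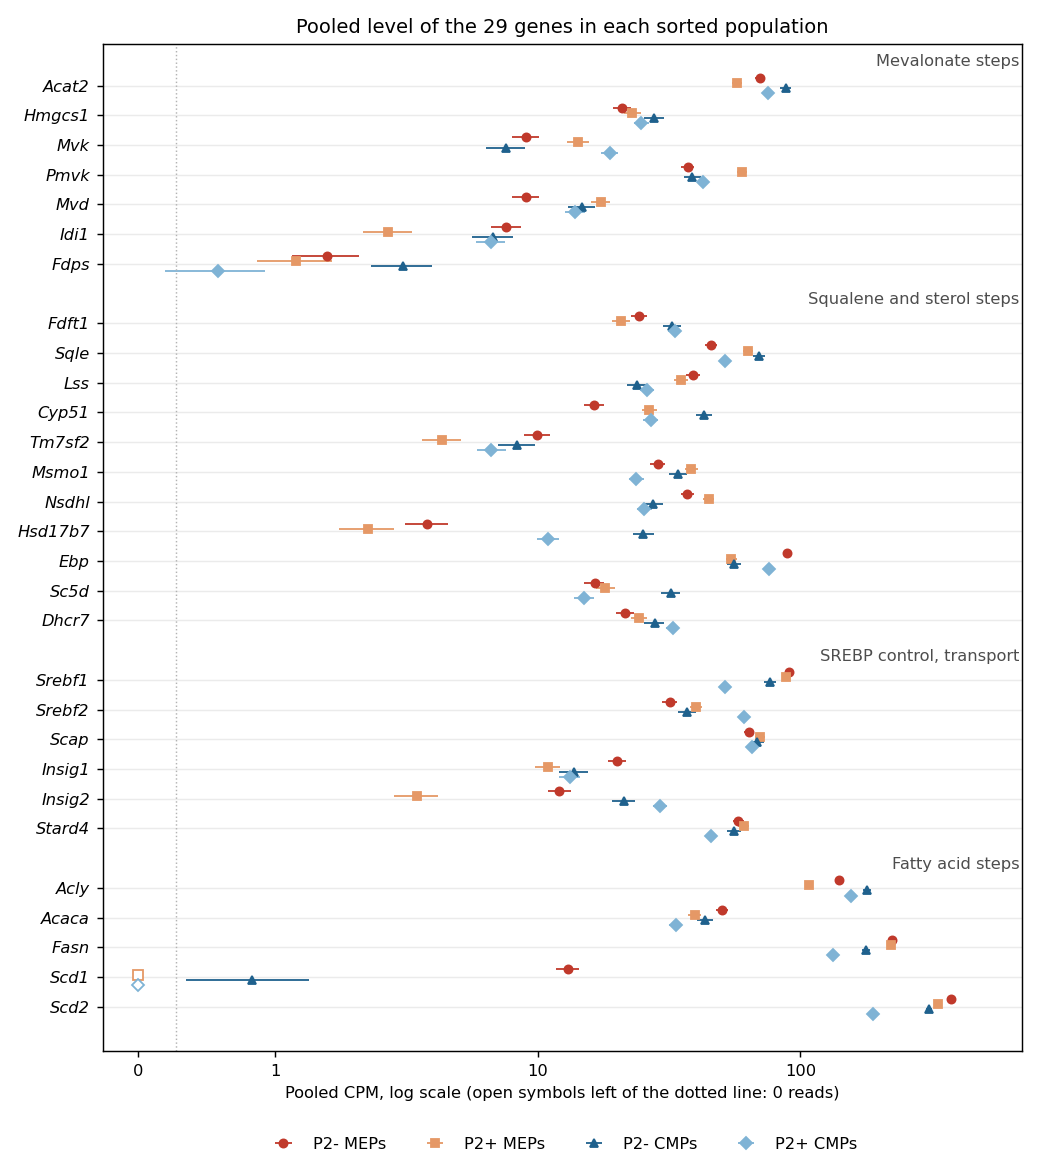
Pooled CPM (log axis) of the 29 genes, by role, in MEPs (circles P2-, squares P2+) and CMPs (triangles P2-, diamonds P2+), with exact 95% Poisson intervals as bars. Scd2, at 189 to 374.8 CPM, is the highest of the 29 in each population, and the open symbols of Scd1 mark 0 reads in P2+ MEPs and P2+ CMPs.

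Levels of different genes are compared per kilobase of exon. On this scale Scd2 was the highest of the 29 in each population, at 68.6, 61.2, 56.6 and 34.6 CPM per kb. Here and from here on, 4 values stand for P2- MEPs, P2+ MEPs, P2- CMPs and then P2+ CMPs. Scd2 codes for a stearoyl-CoA desaturase, which makes oleic acid. Ebp, Acat2, Acly and Pmvk took the next 4 places in each population, in differing order. At the other end, Fdps was at 0.373, 0.286, 0.726 and 0.144 CPM per kb, which placed it 29th or 28th in each population. Fdps makes farnesyl diphosphate, the point where the sterol and isoprenoid routes part. Its reads are uncertain, because reads that fit more than 1 gene were not counted. In a later annotation than the one used for the counts, 26.7% of its exon bases overlap Gm43738. In the same annotation, 10.5% of its 70-base words also occur in other transcripts.

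The steps to mevalonate and isoprenoids were read at low to moderate levels, and 3 consecutive enzymes were at least 1.5-fold higher in P2+ than in P2- MEPs, as were 16.4% of all measured genes. Mvk, mevalonate kinase, was at 8.99, 14.3, 7.58 and 18.8 CPM. Pmvk, the second kinase, was at 37.1, 59.99, 38.7 and 42.5 CPM. Mvd, the decarboxylase that follows them, was at 8.99, 17.4, 14.7 and 13.9 CPM. Between MEPs the log2 ratios of P2+ over P2- were 0.67 (95% interval 0.45 to 0.89) for Mvk, 0.69 (0.58 to 0.80) for Pmvk and 0.95 (0.74 to 1.17) for Mvd. The shares of cells with a read were about equal for Mvk and smaller in P2+ MEPs for Pmvk and Mvd. After each cell was thinned to 100000 reads, Mvk had a read in 13 of the 56 P2- cells and 11 of the 47 P2+ cells, and Pmvk in 34 and 25. Mvd had one in 16 and 10, so that the higher pooled levels of P2+ MEPs came with more reads in the cells that had any. The ratio of Mvk was 0.43 once the cell of highest CPM was left out of each population, and that of Pmvk was 0.50 with equal weight for every cell.

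Idi1, the isomerase that makes the active isoprenoid unit, went the other way, at 7.58, 2.69, 6.76 and 6.63 CPM. It was lower in P2+ than in P2- MEPs (log2 ratio -1.49, -1.87 to -1.13). At 100000 reads, 18 of the 56 P2- cells and 7 of the 47 P2+ cells had a read of Idi1, and 16.9% of its 70-base words also occur in other transcripts. Acat2, the thiolase that joins acetyl units, was the highest of these 7 genes by pooled CPM in 3 populations, at 69.99, 57.4, 87.9 and 75.05 CPM, and Pmvk passed it in P2+ MEPs. As 35.0% of the 70-base words of Acat2 are shared, mainly with Acat3, its level is uncertain. Hmgcs1, the HMG-CoA synthase whose window holds the sterol element, was at 20.9, 22.9, 27.8 and 24.8 CPM and differed by less than 1.5-fold in each of the 4 comparisons. Summed over the 7 genes, the level was 155, 176, 186 and 182 CPM.

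From squalene to cholesterol, Ebp and Sqle had the highest pooled CPM in each population, but per kilobase of exon Nsdhl was above Sqle in P2- MEPs (12.99 against 8.25 CPM per kb) and P2+ MEPs (15.7 against 11.4). Ebp, the sterol isomerase, was at 88.7, 54.5, 56.0 and 75.6 CPM. High levels were in P2- MEPs and P2+ CMPs and low ones in P2+ MEPs and P2- CMPs, and the share of cells with a read followed the same order, with 47 of 56, 25 of 47, 15 of 27 and 34 of 42 cells at 100000 reads. In MEPs P2+ over P2- gave a log2 ratio of -0.70 (-0.79 to -0.62), and in CMPs it was 0.43 (0.33 to 0.54). Sqle, squalene epoxidase and a rate-limiting enzyme of the route, was at 45.8, 63.0, 69.6 and 51.8 CPM, with its highest level in P2- CMPs.

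Cyp51, the demethylase that acts on lanosterol, differed in opposite directions in the compartments, which was not tested. Its pooled level was 16.3, 26.6, 42.9 and 26.8 CPM. P2+ MEPs stood above P2- MEPs by 0.70 on the log2 scale (0.54 to 0.87), and P2+ CMPs stood below P2- CMPs, with a log2 ratio of -0.68 (-0.81 to -0.54). Of the cells, 21 of 56, 19 of 47, 13 of 27 and 16 of 42 had a read at 100000 reads, shares of 37.5%, 40.4%, 48.1% and 38.1% with wide exact intervals that overlap. Sc5d, a sterol desaturase, had a similar high level in P2- CMPs, at 16.4, 18.1, 32.0 and 14.99 CPM. The log2 ratio of Sc5d (P2+ over P2-) was 0.14 (-0.04 to 0.31) in MEPs and -1.09 (-1.27 to -0.92) in CMPs.

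Among the other sterol enzymes, Tm7sf2, a sterol reductase, was at 9.93, 4.31, 8.34 and 6.66 CPM and was lower in P2+ than in P2- MEPs, with a log2 ratio of -1.21 (-1.51 to -0.91). Its exons overlap those of Vps51 over 12.1% of their bases, where reads count for neither gene. Lss, lanosterol synthase, was at 39.0, 35.2, 23.9 and 26.1 CPM and Nsdhl, a sterol dehydrogenase, at 37.1, 44.7, 27.5 and 25.4 CPM, and both were lower in the CMPs. Msmo1, which starts the removal of the methyl groups at carbon 4 and whose window holds the sterol letters, was at 28.7, 38.4, 34.1 and 23.7 CPM. Fdft1, squalene synthase, was at 24.2, 20.8, 32.5 and 33.3 CPM and higher in the CMPs, with 18.3% of its exon bases overlapped by Ctsb on the opposite strand in a count that did not use strand. Dhcr7, a reductase at the end of the route, was at 21.5, 24.2, 27.8 and 32.6 CPM and within 1.5-fold in all 4 comparisons.

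Hsd17b7, a ketoreductase of the same methyl removal as Msmo1, did not pass the limits for a measured gene but showed the widest spread of the sterol enzymes. It was at 3.79, 2.25, 25.2 and 10.9 CPM, so that both CMP populations were above both MEP populations. The log2 ratio of CMPs over MEPs was 2.73 (2.44 to 3.04) among P2- cells and 2.28 (1.92 to 2.67) among P2+ cells, which was 1.56 with equal weight for every cell and 2.92 without the cell of highest CPM in each population. Few cells carried it, with a read in 10 of 56, 3 of 47, 7 of 27 and 6 of 42 cells at 100000 reads, and 1 P2- CMP gave 168 of the 462 reads of its population. Summed over the 11 squalene and sterol genes, the level was 331.4, 331.95, 380 and 327.996 CPM.

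The regulators were read well, and the balance between the SREBP genes differed between the populations. Srebf1 (chromosome 11, 60199089 to 60222581, minus strand, GRCm38) was at 90.5, 88.3, 76.2 and 51.6 CPM. Srebf2 (chromosome 15, 82147181 to 82205379, plus strand) was at 31.8, 40.0, 37.0 and 60.8 CPM. P2+ CMPs had the lowest level of Srebf1 and the highest level of Srebf2. Of the reads of both genes, Srebf2 took 26.0% (24.6 to 27.4) and 31.2% (29.7 to 32.6) in P2- and P2+ MEPs, and 32.7% (30.7 to 34.8) and 54.1% (52.6 to 55.6) in P2- and P2+ CMPs. Per kilobase of exon its share was 21.6%, 26.2%, 27.6% and 48.0%. Cell by cell, Srebf2 exceeded Srebf1 in 8 of 56, 12 of 47, 9 of 27 and 22 of 42 cells. Median levels over cells went from 83.5 to 36.0 CPM for Srebf1 and from 25.3 to 54.9 CPM for Srebf2 between P2- MEPs and P2+ CMPs. Within CMPs P2+ over P2- gave a log2 ratio of -0.56 (-0.67 to -0.46) for Srebf1 and 0.71 (0.59 to 0.84) for Srebf2. Among P2+ cells, CMPs were at -0.78 (-0.86 to -0.69) against MEPs for Srebf1 and at 0.60 (0.50 to 0.71) for Srebf2, which was 0.52 with DESeq2 size factors and 0.58 with equal weight for every cell. Cells of each population spread widely, from 0 CPM to between 208.7 and 269.2 CPM for Srebf1 and to between 124 and 241.8 CPM for Srebf2.

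Scap, the escort of the SREBPs, differed by less than 1.5-fold in each comparison, at 63.5, 70.2, 68.5 and 65.5 CPM. Both Insig genes, whose proteins hold Scap back, were lowest in P2+ MEPs. Insig1 was at 20.0, 10.9, 13.7 and 13.2 CPM, and P2+ MEPs had a log2 ratio of -0.88 (-1.07 to -0.68) over P2- MEPs. Insig2 (chromosome 1, 121304353 to 121332589, minus strand) was at 12.1, 3.45, 21.2 and 29.2 CPM. Without thinning it was read in 43 of the 172 cells, exactly the 25% that a measured gene needs (as was Tm7sf2), and in 4 of the 47 P2+ MEPs, so that it counts as measured through the other populations. Its log2 ratio was -1.81 (-2.13 to -1.50) for P2+ over P2- MEPs and 3.08 (2.79 to 3.38) for CMPs over MEPs among P2+ cells. At 100000 reads, Insig2 was read in 12 of 56, 3 of 47, 9 of 27 and 14 of 42 cells. In P2+ MEPs 1 cell gave 56 of the 109 reads, and without the cell of highest CPM in each population the ratio among P2+ cells was 3.86. Stard4, a carrier of cholesterol between membranes, was at 58.0, 60.7, 55.7 and 45.7 CPM.

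**Figure D2:**
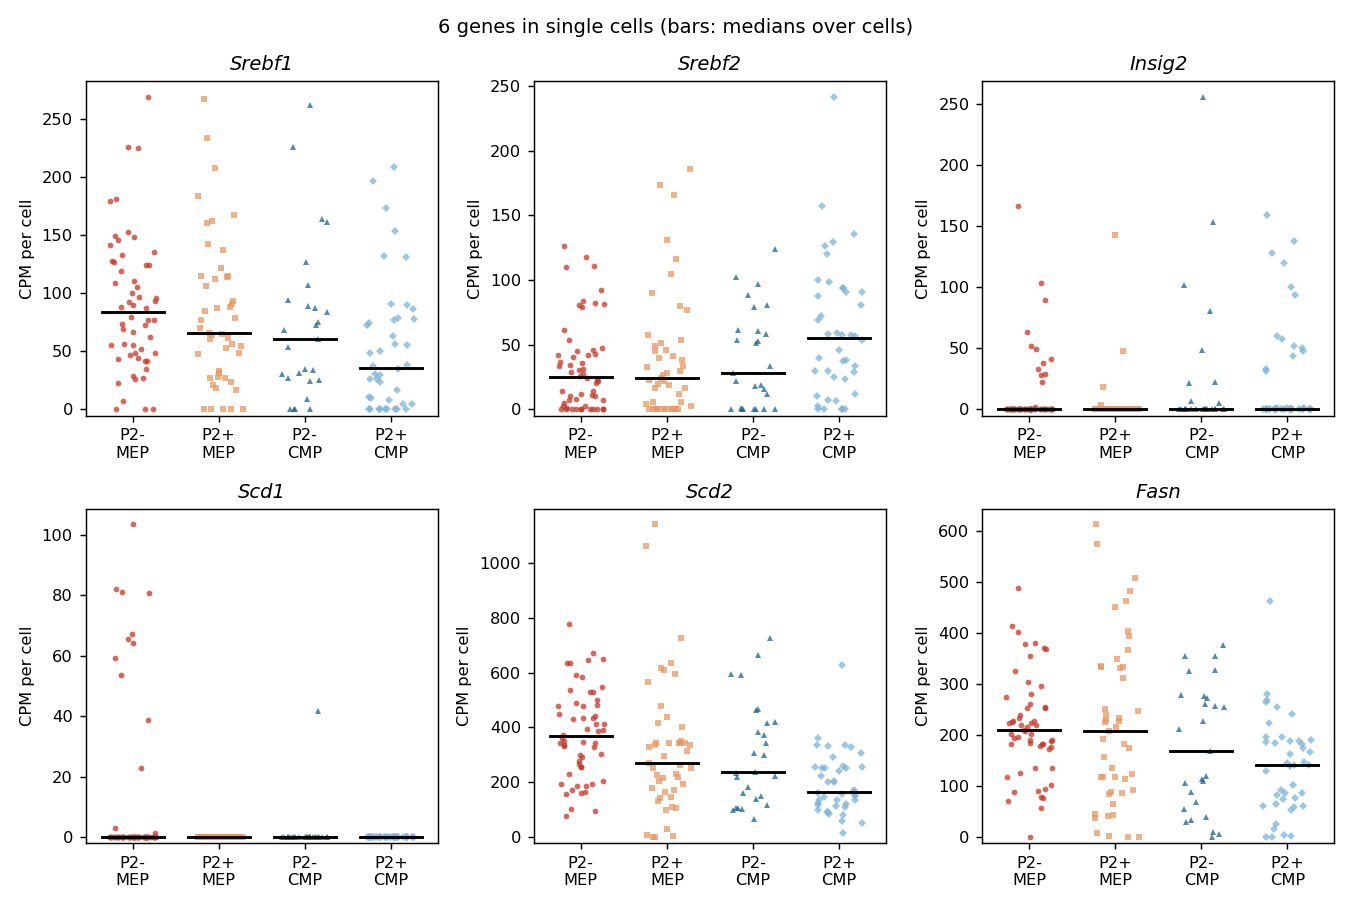
CPM per cell (linear axes) of Srebf1, Srebf2, Insig2, Scd1, Scd2 and Fasn, with each point 1 cell, columns the 4 populations and bars the medians over cells. Medians of Srebf1 go from 83.5 CPM in P2- MEPs to 36.0 CPM in P2+ CMPs while those of Srebf2 go from 25.3 to 54.9 CPM, and Scd1 is above 0 in 13 P2- MEPs and 1 P2- CMP.

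The fatty acid genes were lowest in P2+ CMPs as a sum. Their summed level was 801 CPM (791 to 811) and 703 CPM (694 to 712) in P2- and P2+ MEPs, and 710 CPM (698 to 722) and 512 CPM (504 to 519) in P2- and P2+ CMPs. Over single cells the sum had medians of 781, 650, 705 and 500 CPM, and its range within each population, for example 246.8 to 1483 CPM in P2- MEPs and 206 to 933 CPM in P2+ CMPs, was wider than the differences between medians. Scd2 (chromosome 19, 44293674 to 44306864, plus strand) was at 374.8, 334.4, 309.1 and 189 CPM and was read in 56 of 56, 44 of 47, 27 of 27 and 42 of 42 cells at 100000 reads. Fasn, the fatty acid synthase itself, was at 223.03, 221.04, 177 and 133 CPM. Between CMPs P2+ over P2- gave a log2 ratio of -0.71 (-0.76 to -0.66) for Scd2 and -0.41 (-0.48 to -0.35) for Fasn. Acaca, the acetyl-CoA carboxylase that commits acetyl-CoA to fatty acids, was at 50.3, 39.5, 43.5 and 33.6 CPM, with 27.4% of its 70-base words shared, mainly with Gm5182.

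Acly, which releases acetyl-CoA from citrate for both routes, followed another order. It was at 140, 108, 180 and 156 CPM, lowest in P2+ MEPs and highest in P2- CMPs. Among P2+ MEPs 37 of 47 cells had a read at 100000 reads, against 56 of 56, 26 of 27 and 39 of 42 in the other populations. Its log2 ratio of CMPs over MEPs was 0.36 (0.29 to 0.42) among P2- cells and 0.53 (0.47 to 0.59) among P2+ cells.

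Scd1 (chromosome 19, 44394455 to 44407879, minus strand), the desaturase next to Scd2 and its close relative, had nearly all of its reads in P2- MEPs. Its reads numbered 398, 0, 15 and 0, that is 13.004, 0, 0.818 and 0 CPM. The 398 reads lay in 13 of the 56 P2- MEPs, with 1 to 49 reads each, and the 15 reads in 1 of the 27 P2- CMPs. At 100000 reads per cell, Scd1 was read in 12 of 56 P2- MEPs (21.4%, exact interval 11.6 to 34.4), in 1 of 27 P2- CMPs (3.70%, 0.0937 to 19.0) and in 0 of 47 and 0 of 42 cells of the P2+ populations of MEPs and CMPs, which, with 3 cells standing for a count of 0, allow shares of up to 6.38% and 7.14% (exact upper bounds 7.55% and 8.41%). With 3 reads over the population in place of 0, the pooled level of P2+ MEPs would be 137-fold below that of P2- MEPs. This value treats reads as independent, which the reads of 1 cell are not, and is no limit on the difference between cells. Both genes of the pair share few 70-base words (3.25% of those of Scd1), and Scd2 was present in cells with and without Scd1, at medians of 373.6 and 361.9 CPM in P2- MEPs.

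The P2- MEPs with Scd1 were compared with the other P2- MEPs as a description. Their summed erythroid markers had a median of 3082 CPM, against 2768 CPM in the 43 without. Klf1, an erythroid transcription factor, was at 254.97 CPM or more in each of the 13. Alb, the albumin gene of hepatocytes, was read in 6 P2- MEPs and 1 P2- CMP, and 0 of these 7 cells had a read of Scd1. These 7 cells are few, and the other hepatocyte markers were not compared in this way. The source of the Scd1 reads was not tested.

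**Figure D3:**
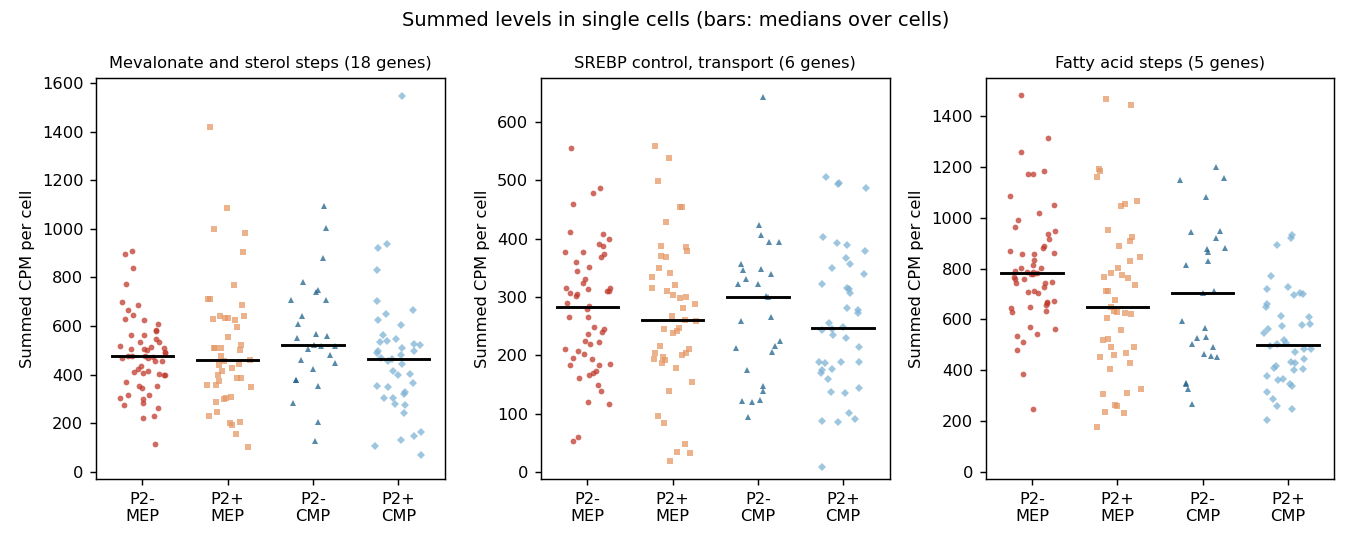
Summed CPM per cell (linear axes) of the 18 mevalonate, squalene and sterol genes, the 6 genes of SREBP control and transport and the 5 fatty acid genes, with each point 1 cell and bars the medians over cells. Fatty acid sums have medians of 781, 650, 705 and 500 CPM from left to right, and the cells of all 4 populations overlap in each panel.

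The number of these genes read per cell was compared at 100000 reads, since depth differed. MEPs had medians of 16 of the 29 genes when P2- (range 10 to 24) and 13 when P2+ (8 to 19), and CMPs of 13 (9 to 23) and 13.5 (8 to 22). All genes together had medians of 5979.5, 5459, 5664 and 5902 read genes per cell at this depth, so that P2- MEPs were also highest over all genes. For 19 of the 29 genes the share of cells with a read was larger in P2- MEPs than in each other population, by as little as 31 of 56 against 26 of 47 cells for Dhcr7. Among measured genes this held for 18 of the 26, which is 69.2%, and for 44.3% of all 8741. With thinning to 200000 reads instead, P2- and P2+ MEPs had medians of 17 and 14 of the 29 genes and P2- and P2+ CMPs of 16 and 14, so that the distance between P2- MEPs and P2- CMPs was smaller than at 100000 reads.

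**Figure D4:**
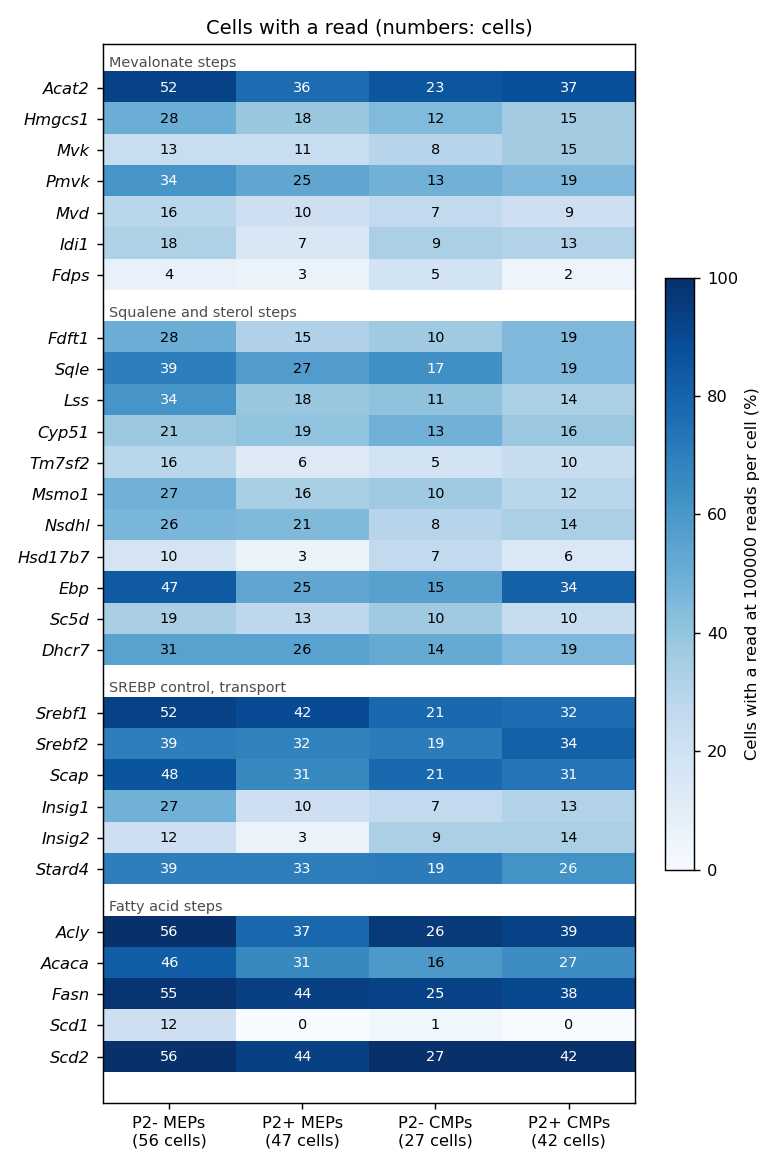
Share of cells with a read of each of the 29 genes (colour, in percent) after thinning to 100000 reads per cell, with the number of cells printed, by role and population. Acly, Fasn and Scd2 are read in nearly all P2- MEPs, while Fdps is read in 2 to 5 cells of each population.

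The question of the reporter, whether cells with and without transcription from the P2 promoter differ, was asked in both compartments. In MEPs, 4 of the 26 measured genes were at least 1.5-fold higher in P2+ cells (Mvk, Pmvk, Mvd and Cyp51), which is 15.4%, beside 16.4% of all measured genes. In the other direction 5 were at least 1.5-fold lower (Idi1, Tm7sf2, Ebp, Insig1 and Insig2), which is 19.2%, beside 8.96% of all measured genes. Without thinning, Tm7sf2 and Insig2 were read in 6 and 4 of the 47 P2+ MEPs and in exactly 25% of all cells. Both thus count as measured through the other populations. The median log2 ratio of the 26 was 0.03, and that of all measured genes 0.01. The remaining 17 of the 26 genes stayed within 1.5-fold, among them Hmgcs1, Msmo1 and Srebf2, whose windows are shown above.

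In CMPs, 2 of the 26 genes were at least 1.5-fold higher in P2+ cells (Mvk and Srebf2), beside 10.3% of all measured genes. Mvk had a log2 ratio of 1.31 (1.04 to 1.58) there. Cyp51, Sc5d and Scd2 were at least 1.5-fold lower, 3 of 26, beside 13.3% of all measured genes. The median log2 ratio was -0.14, against -0.03 over all measured genes, and the 4 measured fatty acid genes had log2 ratios from -0.71 to -0.20. The summed fatty acid genes were at -0.47 (-0.51 to -0.44) in this comparison and at -0.19 (-0.22 to -0.16) between MEPs.

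The compartments were compared within cells of the same reporter state. These comparisons share populations with the 2 above and are not independent of them. Among P2- cells, 5 of the 26 genes were at least 1.5-fold higher in CMPs (Mvd, Sqle, Cyp51, Sc5d and Insig2), beside 22.7% of all measured genes, and 2 were lower (Ebp and Lss), beside 16.4%. Cyp51 had the largest ratio of these, at 1.39 (1.23 to 1.56) on the log2 scale. Of these 7 genes, 3 did not reach 1.5-fold under another weighting or scaling. Mvd was at 0.49 and Ebp at -0.54 with equal weight for every cell and Sqle at 0.55 with DESeq2 size factors. Sqle was also at 0.54 without the P2- CMP of conflicting labels and at 0.498 without the cell of highest CPM in each population. Ebp was also at -0.54 without the cells that had a read of Alb.

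Among P2+ cells, 5 genes were at least 1.5-fold higher in CMPs (Idi1, Fdft1, Tm7sf2, Insig2 and Srebf2), beside 16.5% of all measured genes, and 5 were lower (Msmo1, Nsdhl, Srebf1, Scd2 and Fasn), beside 18.2%. As said above, Tm7sf2 and Insig2 count as measured through populations other than P2+ MEPs. Scd2 was at -0.82 (-0.86 to -0.78) and Fasn at -0.73 (-0.79 to -0.68). Median log2 ratios of the 26 genes were 0.08 among P2- cells and -0.04 among P2+ cells, and those of all measured genes were 0.00 and -0.06. With DESeq2 size factors Tm7sf2 was at 0.54 and Srebf2 at 0.52.

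**Figure D5:**
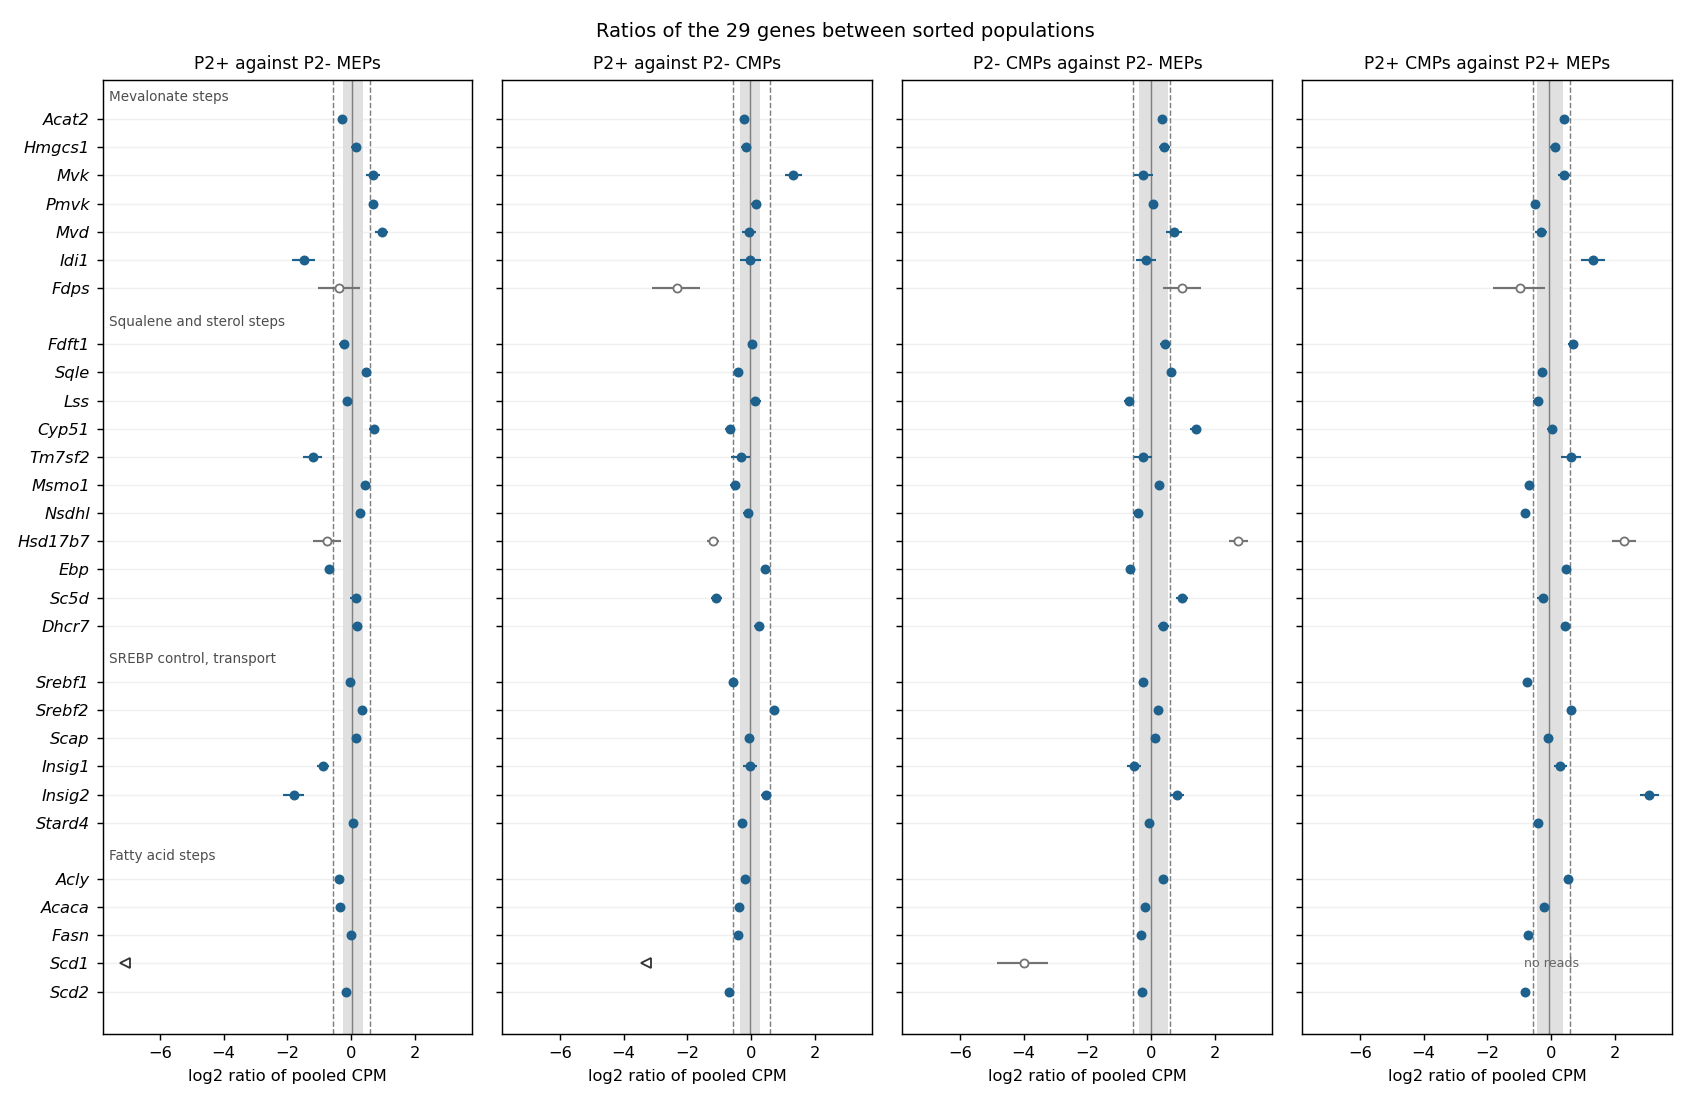
Log2 ratios of pooled CPM of the 29 genes in the 4 comparisons, with exact 95% intervals for counting error. Filled points are measured genes, open points are not, triangles are Scd1 with 3 reads in place of 0, grey bands the middle 50% of all measured genes, and dashed lines 1.5-fold. Insig2 stands at -1.81 between MEPs and at 3.08 among P2+ cells.

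Genes around the pathway were taken from lists beside the 29. Of 12 measured genes of sterol uptake, storage, processing and late synthesis, 1 was at least 1.5-fold higher and 1 lower in P2+ than in P2- MEPs, and 0 and 1 in P2+ than in P2- CMPs. Of all measured genes 16.4% were higher and 8.96% lower in MEPs, and 10.3% and 13.3% in CMPs, and these shares are also the background of the lists that follow. Lipa, the lysosomal lipase that frees cholesterol from its esters, was at 63.1, 32.2, 25.6 and 28.2 CPM, and Tmem97, a sterol-responsive membrane protein, at 211.1, 148, 104 and 86.3 CPM, both highest in P2- MEPs. Mbtps2, a protease that cuts the SREBPs, was at 14.1, 21.2, 12.4 and 8.64 CPM, with 28.4% of its exon bases overlapped by Yy2 on the same strand. Of 5 genes of LXR sterol sensing and efflux 2 were measured, and 1 of these was higher and 0 lower in P2+ than in P2- MEPs, while between CMPs neither passed 1.5-fold. The 1 was Abcg1, which exports cholesterol and is a target of the sterol-sensing LXR receptors, at 15.8, 55.0, 106 and 95.9 CPM, with a log2 ratio of 1.80 for P2+ over P2- MEPs and 2.75 for CMPs over MEPs among P2- cells. The esterifying enzyme Soat1, under the limits of measurement, was at 0.817, 2.44, 13.6 and 9.55 CPM.

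Of the 11 genes that lead isoprenoids into proteins, dolichol and coenzyme Q, all were measured. None was at least 1.5-fold higher in P2+ cells of either compartment, and 3 were lower in MEPs (27.3%, beside 8.96% of all measured genes) and 4 in CMPs (36.4%, beside 13.3%). Pdss2, for the side chain of coenzyme Q, was at 20.1, 12.9, 21.0 and 6.16 CPM, and Nus1, for dolichol, at 64.6, 51.5, 56.2 and 27.9 CPM. Of the 13 other genes of fatty acid synthesis 8 were measured, and 3 of these were lower and 0 higher in P2+ than in P2- MEPs. In CMPs 2 were lower and 1 higher, and the median log2 ratio of the 8 was -0.50 in MEPs and 0.0039 in CMPs. Slc25a1, the citrate carrier that feeds Acly, was at 240, 147, 91.3 and 126 CPM, and Acss2, which makes acetyl-CoA from acetate, at 38.4, 24.5, 23.8 and 8.01 CPM, with 9.12% of its exon bases overlapped by Gss on the opposite strand. Both were highest in P2- MEPs, like Scd2, and Acss2 was, like Scd2, lowest in P2+ CMPs.

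Genes of fatty acid oxidation, the opposite route, were all measured and had median log2 ratios of 0.11 for P2+ over P2- MEPs and 0.15 for P2+ over P2- CMPs, with 3 and 1 of 11 higher and 0 lower. The 1 higher in CMPs is 9.09%, near the 10.3% of all measured genes, and the 3 in MEPs are 27.3%, beside 16.4%. Acadvl, a dehydrogenase of long-chain fatty acids, was at 9.93, 15.9, 19.3 and 28.5 CPM, and its level is uncertain, because 42.9% of its exon bases are overlapped by Dvl2 on the opposite strand. Cpt2, of the carnitine shuttle, was at 56.4, 43.1, 22.3 and 28.9 CPM.

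Markers of maturity and of other cells also differed between the populations. Erythroid markers (14 genes) summed to 2747, 1608, 947 and 484 CPM, megakaryocytic markers (10) to 62.7, 628, 620 and 741 CPM and stem and multipotent markers (8) to 304.9, 380, 1018 and 1256 CPM. The stem list holds Cd34, whose protein separated CMPs from MEPs in the sort, so that its difference between the compartments is not independent of the sort. The megakaryocytic list holds Itga2b, the gene of CD41, and cells with CD41 on the surface were left out of the sort. Granulocyte and monocyte markers (10) summed to 16.4, 72.2, 423 and 677 CPM, endothelial markers (7) to 6.37, 40.2, 88.5 and 113 CPM and mast and basophil markers (5) to 0.327, 2.69, 72.8 and 34.2 CPM. Hepatocyte markers (9) summed to 12.4, 14.03, 38.2 and 27.5 CPM, with Alb at 0 reads in both P2+ populations, macrophage markers (8) to between 1.27 and 10.2 CPM, with C1qa, C1qb, C1qc and Adgre1 at 0 reads in all 4, and lymphoid markers (7) to between 0 and 3.22 CPM. The part of the markers in the differences between populations was not tested. The 19 cell division genes summed to 5945, 5746, 5436 and 5525 CPM.

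The sums were also set against each other over the single cells of 1 population. Spearman's rho between the summed 18 mevalonate, squalene and sterol genes and the summed erythroid markers was 0.12 over 56 P2- MEPs and -0.35 over 47 P2+ MEPs, and 0.11 over 27 P2- CMPs and -0.01 over 42 P2+ CMPs. For the fatty acid sum against these markers it was 0.02, 0.27, 0.10 and 0.05, so that in P2+ MEPs the sign was opposite for both sums. Against the reads of a cell it lay between -0.06 and 0.28 for the sterol sum and between -0.18 and 0.14 for the fatty acid sum. Between the sterol sum and the fatty acid sum it was -0.18, -0.30, 0.08 and -0.24. Each pair of sums shares the library and total of a cell, and these values are descriptions.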

How the data were processed

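Single cells of 4 sorted populations were profiled by a modified Smart-Seq2 protocol. Paired reads had been cleaned by the authors in Trimmomatic 0.36 and mapped in STAR 2.4.2a to GRCm38 with ERCC sequences. They counted reads on exons with HTSeq 0.6.1p1 and did not use strand. The deposited counts are raw and not normalized. The table of cells deposited with them holds unmapped reads as a percent of all reads. The 5 rows of HTSeq tallies were kept out of all totals, and of the uniquely mapped reads 25.6% had been set aside as ambiguous between genes. Overlapping genes lose reads in this way, and near-identical copies lose those that map to several places, which HTSeq tallies apart.

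Cells were kept with at least 250000 reads, at most 25% unmapped reads and at most 15% ERCC reads, as in the methods of the study. Groups came from the sample labels, in which CMPs are called low and high, read here as P2- and P2+. CPM is the sum of a gene over a population relative to all mouse reads of that population. Ratios carry no pseudocount, and 0 reads were set to 3 reads over the population, which covers counting error only. Intervals at 95% are exact Poisson (CPM), exact conditional binomial (ratios) and Clopper-Pearson (shares). Cells were thinned without replacement to 100000 reads for shares of cells. Exon lengths, overlaps and shared 70-base words came from GENCODE vM21, and coordinates are GRCm38. This is a later release than the one the authors counted on, so that overlaps in the counts may differ from those given here. Python 3.11.15 with NumPy 2.4.6, SciPy 1.17.1, pandas 2.3.3 and matplotlib 3.10.9 was used, and DESeq2 1.42.0 in R 4.3.3 gave size factors for 1 alternative and no test. The pooled log2 ratio was tested on simulated counts with known fold changes, and the interval of a ratio on Poisson draws. The other steps were not tested in this way.

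The members and the gene lists were chosen with earlier results of these data known. All 29 members are named, with a few genes of 6 lists that accompany them (genes of sterol handling, sterol sensing and efflux, isoprenoid use, other fatty acid synthesis, fatty acid oxidation and cell division), and some genes of these lists are counted but not reported by name. Marker lists covered erythroid, megakaryocytic, stem and multipotent, granulocyte/monocyte, macrophage, mast and basophil, lymphoid, endothelial and hepatocyte genes. The alternatives tried were DESeq2 size factors, equal weight for every cell, every deposited cell, leaving out the cell of highest CPM per gene and population, a denominator without mitochondrial genes and Rn18s-rs5, leaving out the P2- CMP of conflicting labels, genes with at least 10 reads, a 2-fold limit and other thinning depths. Leaving out cells with a read of Alb was added after seeing the data. Left out were per-cell tests, since cells of 1 pool are not replicates.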

Additional observations from a re-analysis of the deposited data

Results flagged for a closer look

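Cyp51, the lanosterol demethylase, was flagged because its difference between cells with and without the reporter ran in opposite directions in the compartments. The log2 ratio of P2+ over P2- cells was 0.70 in MEPs, from 16.3 to 26.6 CPM, and -0.68 in CMPs, from 42.9 to 26.8 CPM. Each population is 1 sample, and the difference between the compartments was not tested.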

How the results depend on the processing

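Counts of genes past 1.5-fold changed by more than 1.5 times under these settings. With a 2-fold limit the numbers higher and lower were 0 and 3 for P2+ over P2- MEPs, 1 and 1 for P2+ over P2- CMPs, 1 and 0 for CMPs over MEPs among P2- cells, and 2 and 0 among P2+ cells, as a stricter limit implies, and of all measured genes 7.52% and 2.68%, 3.43% and 4.48%, 12.3% and 6.68%, and 8.05% and 7.38% passed it in this order. Among P2- cells, 1 gene was lower in CMPs both with equal weight for every cell and without cells that had a read of Alb (15.5% and 16.5% of all measured genes). With DESeq2 size factors 3 genes were higher in P2+ CMPs than in P2+ MEPs (14.1% of all measured genes). Between CMPs, 4 genes were higher without the cell of highest CPM per gene, and 6 were lower with a limit of 10 reads, which admits Fdps, Hsd17b7 and Scd1 (22.8% of all genes with 10 reads). Causes other than this were not tested. The median log2 ratio of the members stayed between -0.04 and 0.08 for P2+ over P2- MEPs, where its sign was not stable, and between -0.22 and -0.11 for P2+ over P2- CMPs, and for CMPs over MEPs between -0.03 and 0.14 among P2- cells, where the sign also changed, and between -0.19 and -0.0041 among P2+ cells. Ratios of single members depended on the weight of cells, which the intervals for counting error do not cover. With equal weight for every cell, 45 of these log2 ratios were counted as moved and 70 as the same. Without the cell of highest CPM per gene, 35 were counted as moved, 1 as reversed and 78 as the same. Fdps went from 0.96 to -0.061 for CMPs over MEPs among P2- cells without the cell of highest CPM, where 1 P2- CMP held 34 of 56 reads. That setting removes 1 of 27 against 1 of 56 cells and shifted the median of all genes by -0.10 there, and it made 14.99% higher and 11.99% lower between CMPs (10.3% and 13.3% before) and 19.7% and 21.8% between P2- populations (22.7% and 16.4% before). The median number of the 29 genes read per P2- MEP was 14 at 50000 reads, 17 at 200000 and 17.5 without thinning, and without thinning it was 15 in P2+ MEPs and 15 in P2+ CMPs. In P2- CMPs it was 13 at 50000 and at 100000 reads and 16 at 200000 and without thinning. Fdps was read in 4 of 56 P2- MEPs at 100000 reads and in 16 without thinning, and Scd1 in 12 and 13. The use of 1 pool per population leaves the spread between embryos unknown. No paired analysis was possible because the populations share no replicate numbers and no result comes from a test.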
